A study of Homo sapiens with 12 samples.

Results

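Genes that encode inhibitors of cyclin-dependent kinases (CDKs) other than p21 were followed in RPE-1 cells: CDKN1B, CDKN2A, CDKN2B, CDKN2C, CDKN2D and CDKN3. They were taken by their symbols, as 6 of the 43481 genes to which the transcripts of the expression tables could be assigned, and all 6 were among the 15263 genes with enough counts to test. They have 38 annotated transcripts, of which 21 had enough counts to test. RPE-1 is an established human line of retinal pigment epithelium immortalised with telomerase, and polyadenylated RNA was sequenced from 12 libraries of it in 4 groups of 3. Every group was first deprived of fetal calf serum (FCS) and glucose for 24 h. For 4 h, refed cells were then given medium with 5 g/l glucose and 10% FCS together with 1 of 3 agents. These were 100 µM DMA (dimethyl amiloride, an inhibitor of Na+/H+ exchangers), 10 µM C646 (an inhibitor of the histone acetyltransferases p300 and CBP) or the solvent DMSO. The fourth group is labelled starved, had 0 h of refeeding and serves as the baseline. The refed groups differ from it by the added 4 h as well as by serum and glucose, and these cannot be told apart. The labels give libraries numbers within their group but do not say whether a number stands for a culture of its own, so each p-value below measures only the spread between samples.

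CDK inhibitors hold back the kinases that carry a cell from G1 into S phase. The protein p27, from CDKN1B, binds cyclin-CDK complexes and is known to accumulate in serum-starved cells, where its amount is set largely by protein breakdown through the ubiquitin ligase that contains SKP2. The INK4 proteins p16 (CDKN2A), p15 (CDKN2B), p18 (CDKN2C) and p19 (CDKN2D) bind CDK4 and CDK6 and keep them from their D-type cyclins. CDKN2A also encodes ARF, read from an upstream first exon in another frame, which binds the ubiquitin ligase MDM2. CDKN3 encodes KAP, a phosphatase that removes the activating phosphate from CDK2 and whose transcript is usually highest in G2 and mitosis.

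CDKN2A and CDKN2B lie beside each other on the minus strand of chromosome 9, at chr9:21967753-21995301 and chr9:22002903-22009363 in GENCODE 29 (GRCh38). CDKN1B lies at chr12:12715058-12722371, CDKN2C at chr1:50960745-50974633 and CDKN3 at chr14:54396849-54420218, all on the plus strand, and CDKN2D at chr19:10566462-10569059 on the minus strand. RefSeq (GRCh38.p14) lists 9 promoter windows for the 6 genes, each of 300 bases from 250 before to 50 after a transcription start. A selection of 4 is printed 5′ to 3′ because the results turn on these genes: those of CDKN1B and CDKN2B, the genes with lower RNA after refeeding, and both alternative starts of CDKN2A. Capitals mark CCAAT and GGGCGG on either strand.
CDKN1B, chr12:12717118-12717417, plus strand: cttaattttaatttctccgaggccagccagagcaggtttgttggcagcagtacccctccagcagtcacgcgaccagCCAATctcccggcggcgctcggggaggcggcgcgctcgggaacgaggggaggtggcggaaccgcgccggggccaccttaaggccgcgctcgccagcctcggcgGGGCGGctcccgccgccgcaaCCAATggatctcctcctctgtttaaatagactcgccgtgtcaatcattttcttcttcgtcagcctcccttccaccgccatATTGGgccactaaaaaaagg
CDKN2B, chr9:22009256-22009555, minus strand: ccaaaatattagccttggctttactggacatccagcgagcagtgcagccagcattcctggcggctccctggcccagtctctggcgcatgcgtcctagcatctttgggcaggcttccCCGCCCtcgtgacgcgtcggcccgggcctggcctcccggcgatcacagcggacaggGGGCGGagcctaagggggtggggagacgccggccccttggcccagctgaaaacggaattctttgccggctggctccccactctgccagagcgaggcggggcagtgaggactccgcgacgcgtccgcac
CDKN2A, p16 start, chr9:21974808-21975107, minus strand: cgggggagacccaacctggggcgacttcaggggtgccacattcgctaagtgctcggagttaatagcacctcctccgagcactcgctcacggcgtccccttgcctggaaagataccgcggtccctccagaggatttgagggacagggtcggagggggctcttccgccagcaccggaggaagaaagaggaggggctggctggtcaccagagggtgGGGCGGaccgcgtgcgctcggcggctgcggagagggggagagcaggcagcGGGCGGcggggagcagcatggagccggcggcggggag
CDKN2A, ARF start, chr9:21995275-21995574, minus strand: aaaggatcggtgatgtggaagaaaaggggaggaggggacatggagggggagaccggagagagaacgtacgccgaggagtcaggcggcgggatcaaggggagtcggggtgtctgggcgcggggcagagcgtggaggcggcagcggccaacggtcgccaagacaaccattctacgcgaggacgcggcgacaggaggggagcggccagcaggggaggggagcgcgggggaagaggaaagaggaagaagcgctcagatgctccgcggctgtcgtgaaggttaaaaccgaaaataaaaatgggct
The CDKN1B window holds 3 CCAAT motifs, the letters bound by NF-Y, and 1 GGGCGG, the GC box bound by SP1. The windows of CDKN2B and of the p16 start each hold 2 GGGCGG and 0 CCAAT, while the ARF window holds 0 of either. Among 35116 RefSeq promoter windows of the same length, 34.6% hold CCAAT and 45.0% hold GGGCGG. The forkhead letters GTAAACA (3.42% of all windows) and the E2F letters TTTGGCGC (0.652%) and TTTCCCGC (1.63%) were found in 0 of the 9 windows, both strands searched. The CHR letters TTTGAA, an element of genes timed to G2 and mitosis, occur 1 time in the CDKN3 window and in 15.2% of all windows. The E-box letters CACGTG, linked to MYC (7.26% of all windows), occurred only in windows of CDKN2C. The SMAD letters CAGAC (45.3%) occurred in windows of CDKN2C, CDKN2D and the ARF start. A match is a description of letters only, and the marked matches in the printed windows do not overlap.

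The libraries held 14910516 to 28968510 expected counts, the reads assigned to each transcript by estimation, and no pair of libraries had identical values. Of the pigment epithelium markers checked, RPE65, RLBP1 and TYR had at most 7 counts in any library and TTR was listed at 0 in all 12, while MITF (6.28 to 23.1 TPM, the level scaled by transcript length and library total) and OTX2 (4.69 to 15.97 TPM) were detected. VIM (3359 to 5420 TPM), KRT8 (264 to 543 TPM) and KRT18 (377 to 756 TPM) were high in every library, and EPCAM and CDH1 had at most 6 counts. Scaling to the 92 spike-in sequences instead of to the bulk of the genes moved the median log2 change of all genes to 0.81 for DMA, 0.73 for C646 and 0.60 for DMSO against starved cells, and to 0.22 for DMA and 0.13 for C646 against DMSO. Every change below is therefore relative to the other genes. In RNA from a whole culture, fewer cells expressing a gene and less of its RNA per cell cannot be told apart.

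By TPM summed over its transcripts, CDKN2A was the most abundant of the 6 genes in every group. It averaged 291 ± 37.1 TPM with DMA, 227 ± 16.8 TPM with C646, 208 ± 32.9 TPM with DMSO and 217 ± 19.6 TPM in starved cells (SD, n = 3 each). These levels made up 67.6%, 66.3%, 63.1% and 59.9% of the summed TPM of the 6 genes. By estimation, a median of 73.6% of the gene's TPM lay in CDKN2A-212, a transcript of 678 bases. It has no sequence of 31 bases that the gene's other transcripts lack. Transcripts that start in the p16 window averaged 52.4 to 75.3 TPM in the groups. In counts not scaled by length, CDKN2A (1277 to 2473) and CDKN1B (1491 to 1811) overlapped between the starved libraries. CDK4, the gene of a kinase that p16 binds, averaged 341 ± 15.2, 306 ± 6.82, 307 ± 5.28 and 408 ± 14.4 TPM in the same 4 groups, above CDKN2A in each, while CDK6 averaged 7.62 to 13.4 TPM. Reads of CDK4 are uncertain because 43.2% of its exons overlap TSPAN31 on the other strand.

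Below CDKN2A, the places of CDKN3, CDKN1B and CDKN2B differed between the groups. CDKN3 came next with DMA (69.3 ± 2.85 TPM) and DMSO (62.2 ± 13.0 TPM), above CDKN1B (34.3 ± 7.80 and 33.2 ± 6.35 TPM) with no overlap between libraries. With C646, CDKN3 (51.7 ± 8.57 TPM) and CDKN1B (33.9 ± 7.72 TPM) overlapped at their edges, and in starved cells CDKN1B (59.3 ± 9.78 TPM) overlapped with CDKN3 (49.9 ± 3.14 TPM). CDKN2C, CDKN2B and CDKN2D closed the order in every group with means of 5.496 to 16.1 TPM. CDKN2B and CDKN2D overlapped in each of the refed groups, whereas in starved cells CDKN2B (14.97 ± 3.16 TPM) overlapped with CDKN2C (13.0 ± 2.83 TPM) and stood above CDKN2D (8.01 ± 1.36 TPM). CDKN1C, the gene of p57, had at most 4 counts in any library and was not tested.

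**Figure D1:**
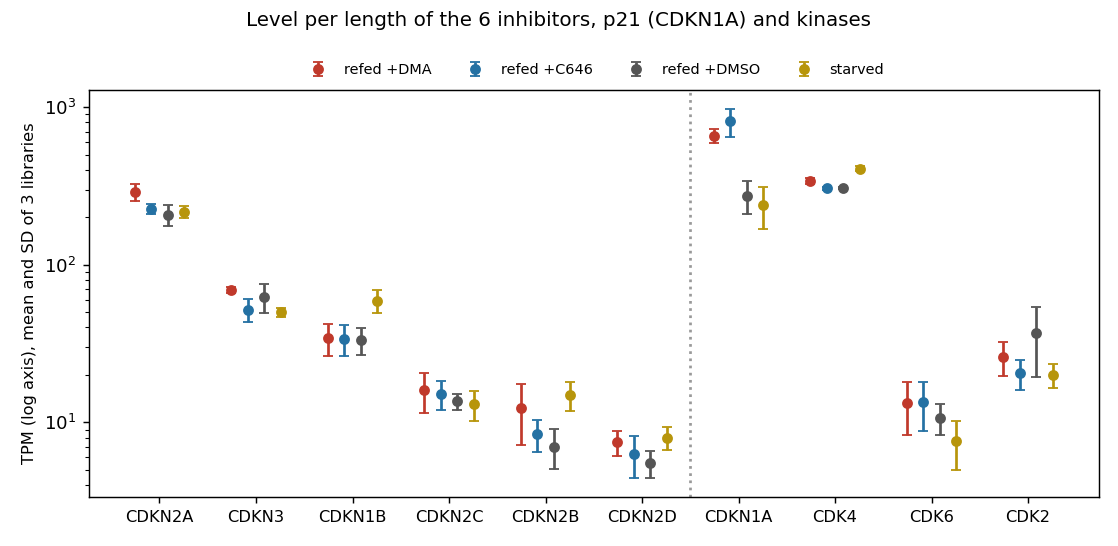
Mean TPM (log axis) with SD of 3 libraries for the 6 inhibitors, and right of the dotted line for CDKN1A (p21), CDK4, CDK6 and CDK2, in the groups refed with DMA, refed with C646, refed with DMSO and starved. CDKN2A, summed over all its transcripts, lies at 208 to 291 TPM, near CDK4, and the others lie at 5.496 to 69.3 TPM.

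The transcripts of 2 of the 6 inhibitors, those of p27 and p15, fell after refeeding with DMSO, and 0 of 6 rose. The levels that follow are counts scaled by library total and trimmed-mean factor (TMM-scaled CPM, here CPM). CDKN2B had 11.1, 14.3 and 15.9 CPM in the DMSO libraries 1, 2 and 3, against 34.3, 32.9 and 27.9 CPM in the starved libraries. Every starved library lay above every DMSO library, and the means of 13.8 ± 2.46 and 31.7 ± 3.33 CPM (SD, n = 3 each) differed 2.31-fold. The log2 change was -1.21 ± 0.27 (SE), with an adjusted p of 0.0066 in edgeR's quasi-likelihood test with Benjamini-Hochberg adjustment over all genes. It stayed past the threshold of 0.05 without any 1 of the 6 libraries (adjusted p 0.0114 to 0.0323).

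CDKN1B had 42.8, 57.7 and 51.4 CPM in the DMSO libraries, against 65.6, 75.8 and 106 CPM in the starved libraries. The groups did not overlap, although DMSO library 2 came near starved library 1, and starved library 3 stood above the other starved libraries. Its mean of 50.6 ± 7.45 CPM with DMSO was 1.63-fold below the 82.6 ± 21.2 CPM of starved cells (log2 change -0.70 ± 0.19, edgeR adjusted p = 0.0160). The call ended without DMSO library 1 (adjusted p = 0.0683) or starved library 3 (0.0655), and both calls ended with spike-in scaling, where CDKN1B measured -0.10 (adjusted p = 0.843) and CDKN2B -0.56 (0.232). Starved library 3 was the shallowest of all libraries (14910516 expected counts). It also had the highest mitochondrial share of counts (4.14%, against 1.67% to 3.24% in the others). Across all genes, 24.3% passed the threshold in this comparison and 11.7% were lower, the background for these 2 of 6. With spike-in scaling 3416 genes passed, of which 94.5% were higher and 189 genes lower.

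The other INK4 genes and CDKN3 did not pass the test after refeeding with DMSO. CDKN2D had 3.72, 5.29 and 4.42 CPM with DMSO, against 7.00, 6.78 and 5.99 CPM in starved cells, groups that did not overlap (log2 change -0.56 ± 0.25, edgeR adjusted p = 0.123). CDKN3 had 31.8, 25.5 and 24.5 CPM with DMSO, against 19.9, 23.4 and 23.3 CPM in starved cells, again without overlap but in the other direction (0.30 ± 0.15, edgeR adjusted p = 0.181). The groups did not overlap in 40.0% of all genes here. CDKN2A, at 75.0, 99.9 and 99.9 CPM with DMSO and 98.7, 104 and 91.0 CPM in starved cells, had a log2 change of -0.09 ± 0.13 (edgeR adjusted p = 0.636). For CDKN2C the change was -0.00 ± 0.19, with 13.3 to 15.7 CPM with DMSO and 11.8 to 15.8 CPM in starved cells.

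**Figure D2:**
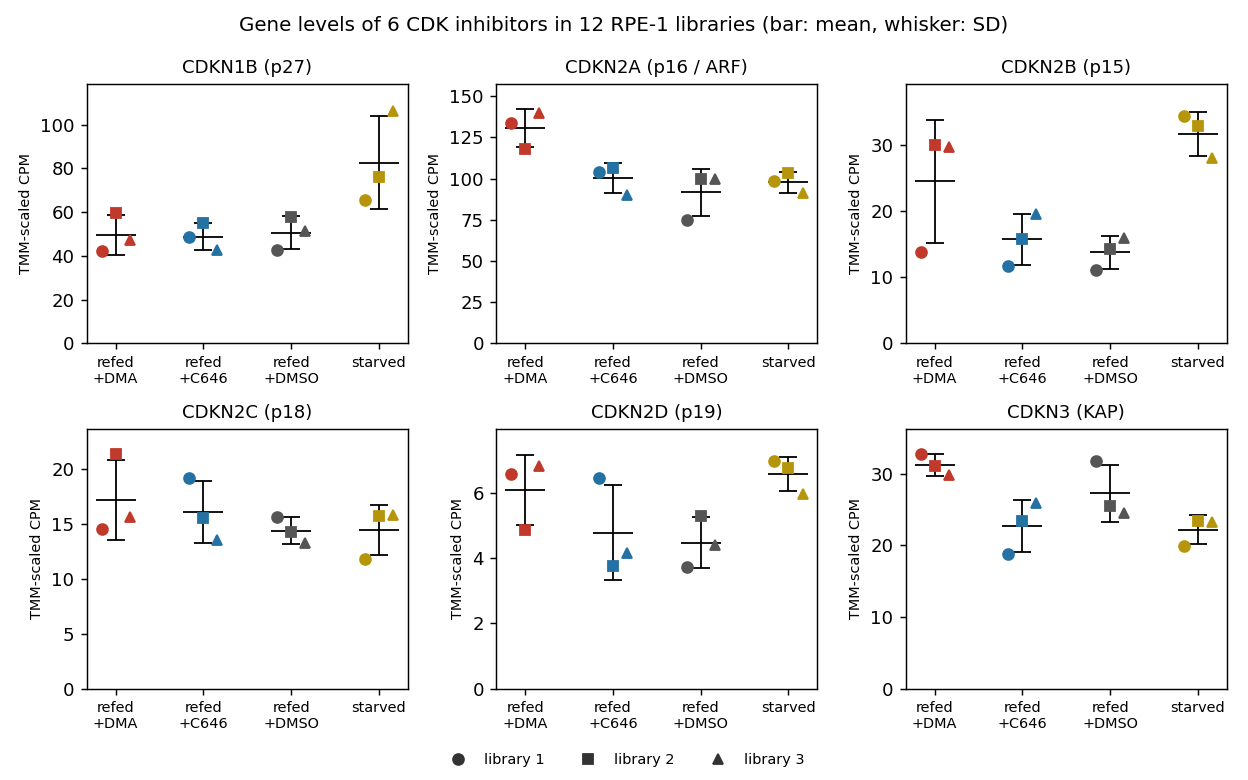
TMM-scaled CPM (linear axes from 0) of the 6 inhibitors in each library, refed with DMA, C646 or DMSO and starved; symbols give the library number, bars the mean and whiskers the SD. CDKN1B and CDKN2B have their highest means in starved cells, where the CDKN2B libraries overlap with those of DMA. CDKN2A lies highest with DMA, and DMA library 1 lies apart from the other DMA libraries for CDKN2B.

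Of 13 genes of p27 turnover and synthesis, 3 were higher and 2 lower with DMSO than in starved cells and 8 did not pass, beside 24.3% of all genes called, and the median log2 change was 0.22, against 0.00 over all genes. The count of 5 called was 2 without starved library 1 or DMSO library 1, and 3 without starved library 2 or DMSO library 2 or 3. SKP2, the substrate receptor of the ligase that marks p27 for breakdown, averaged 27.4 CPM with DMSO and 8.14 CPM in starved cells (1.76 ± 0.25, edgeR adjusted p = 3.4e-04). FOXO4, a forkhead factor of a family known to activate CDKN1B, averaged 3.61 CPM with DMSO and 9.19 CPM in starved cells (-1.35 ± 0.24, edgeR adjusted p = 0.0015). Both calls held without any 1 library, and that of FOXO4 ended with spike-in scaling (-0.71, adjusted p = 0.220). By TPM, FOXO4 averaged 1.75 ± 0.13 with DMSO and 4.72 ± 1.51 in starved cells (SD). Of the same family, FOXO3 averaged 20.4 ± 0.77 TPM with DMSO and 17.99 ± 2.65 TPM in starved cells. FOXO1 averaged 2.22 ± 0.54 and 2.33 ± 0.12 TPM in the same order. Among 12 genes of D- and E-type cyclins, their kinases and pocket proteins, 4 were higher and 2 lower. CCND3, which encodes cyclin D3, rose by 1.48 ± 0.13 to 46.6 CPM with DMSO, against 16.7 CPM in starved cells (edgeR adjusted p = 1.2e-05). RBL2, the pocket protein p130 of resting cells, fell by 0.66 ± 0.13 to 44.2 CPM, against 69.8 CPM (edgeR adjusted p = 0.0027), a call that ended with spike-in scaling (-0.05, adjusted p = 0.920).

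Of 16 INK4 regulators and neighbours tested, 2 were higher and 2 lower with DMSO than in starved cells, a share near the 24.3% of all genes (median log2 change -0.17, against 0.00 over all genes). ID1, a repressor of ETS factors at the p16 promoter, averaged 10.4 CPM with DMSO and 2.14 CPM in starved cells (2.25 ± 0.34, edgeR adjusted p = 4.7e-04). ETS2, one of those activating factors, averaged 47.4 CPM with DMSO and 137 CPM in starved cells (-1.53 ± 0.20, edgeR adjusted p = 2.0e-04). EED, a subunit of the Polycomb complex that marks the locus, rose by 1.20 ± 0.19 (21.7 CPM with DMSO, 9.42 CPM in starved cells, edgeR adjusted p = 7.3e-04). CBX7, another Polycomb protein that represses the locus, averaged 4.07 CPM with DMSO and 12.3 CPM in starved cells (-1.60 ± 0.26, edgeR adjusted p = 7.3e-04). Scaled to the spike-ins it measured -0.99 and did not pass (adjusted p = 0.0850). Reads of CBX7 are uncertain because 21.6% of its exons overlap other genes on either strand (17.9% on the other strand). MTAP, the neighbouring gene, had a log2 change of 0.50 ± 0.17 that did not pass (edgeR adjusted p = 0.0512), and CDKN2B-AS1, transcribed from the opposite strand, had only 1 to 14 counts per library. Of 10 genes linked to p15 and TGF-beta, 1 was higher and 3 lower (median -0.38). SP1, a factor known to bind GC boxes, fell by 0.77 ± 0.11 to 79.0 CPM with DMSO, against 135 CPM in starved cells (edgeR adjusted p = 2.8e-04), a call that ended with spike-in scaling (-0.19, adjusted p = 0.693). TGFBR2, a receptor of the TGF-beta signal that induces p15, rose by 0.57 ± 0.13 (202 CPM with DMSO, 136 CPM in starved cells, edgeR adjusted p = 0.0082).

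Of 7 genes around ARF and MDM2, 2 were higher and 3 lower with DMSO than in starved cells (median -0.23), and of 20 genes timed like CDKN3 to G2 and mitosis 1 was higher and 0 lower (median -0.04). Of all genes, 24.3% were called in this comparison and 11.7% were lower. With spike-in scaling, which moved the median of all genes to 0.60, the medians of all 6 lists were positive with DMSO against starved cells (0.17 to 1.10). BTG2, which restrains growth, averaged 20.1 CPM with DMSO and 8.997 CPM in starved cells (1.14 ± 0.23, edgeR adjusted p = 0.0033). The call held without any 1 library and with spike-in scaling. MDM4, of the lower genes, averaged 8.78 ± 4.11 TPM with DMSO and 14.5 ± 4.25 TPM in starved cells. Leaving out 1 library gave MDM4 log2 changes of -1.09 to -0.81 (edgeR adjusted p 0.0089 to 0.0244). Over all alternative fits the values reached -0.36 and an adjusted p of 0.455.

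DMA during refeeding gave the highest CDKN2A level of the study, and the difference from DMSO stood just outside the threshold. CDKN2A had 134, 118 and 140.1 CPM in the DMA libraries, against 75.0, 99.9 and 99.9 CPM in the DMSO libraries. Every DMA library lay above every DMSO library, as groups did not overlap in 23.2% of all genes, and the means of 131 ± 11.5 and 91.6 ± 14.4 CPM differed 1.43-fold (log2 change 0.51 ± 0.13, edgeR adjusted p = 0.0599). With the library number as a block, the adjusted p was 0.0207, with DESeq2 it was 0.0067 and with no filter on low counts it was 0.0464. It stayed above the threshold without any 1 of the 6 libraries (0.0685 to 0.220), with the block without DMSO library 1 (0.102), with the compared groups alone (0.123), with an offset for effective length (0.126) and with spike-in scaling (0.593).

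CDKN2B had 13.8, 30.0 and 29.6 CPM in the DMA libraries, against 11.1, 14.3 and 15.9 CPM in the DMSO libraries. DMA libraries 2 and 3 lay within the range of the starved libraries and DMA library 1 lay among the DMSO libraries. The means were 24.5 ± 9.28 CPM with DMA and 13.8 ± 2.46 CPM with DMSO (0.83 ± 0.27, edgeR adjusted p = 0.121, or 0.0380 with the block and 0.0406 with DESeq2). Leaving out 1 library gave log2 changes of 0.66 to 1.11, with an adjusted p of 0.0324 without DMA library 1 and of 0.128 to 0.367 without any 1 of the others. By edgeR, 0 of the 6 inhibitors were called, 2 had an unadjusted p under 0.05, and the same 2 were called by DESeq2 and with the block. Of all genes, 1.75% passed the threshold in edgeR, 7.18% passed in DESeq2 and 10.2% passed with the block.

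The remaining genes did not pass the test between DMA and DMSO. CDKN1B had 42.1, 59.8 and 47.2 CPM with DMA, against 42.8, 57.7 and 51.4 CPM with DMSO, groups that overlapped throughout (log2 change -0.03 ± 0.19). CDKN2C (0.26 ± 0.19), CDKN2D (0.45 ± 0.25) and CDKN3 (0.20 ± 0.15) had edgeR adjusted p of 0.352 to 0.520. CDKN1A, the p21 gene, averaged 992 ± 85.1 CPM with DMA and 409 ± 104 CPM with DMSO (1.28 ± 0.22, edgeR adjusted p = 0.0184), a call that ended without DMSO library 1 (0.0888), DMSO library 2 (0.0578) or DMA library 2 (0.0756). Of the other lists, 0 of 13 p27 genes, 0 of 16 INK4 regulators, 0 of 10 p15 and TGF-beta genes and 0 of 20 genes of G2 and mitosis were called. The calls were 1 of 12 cyclin and kinase genes (lower) and 2 of 7 genes around ARF and MDM2 (1 higher, 1 lower). Beside these small lists, 1.75% of all genes were called by edgeR.

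With C646, 0 of the 6 inhibitors passed the test against DMSO. CDKN1B had 48.7, 55.1 and 42.7 CPM with C646, against 42.8, 57.7 and 51.4 CPM with DMSO. CDKN2A had 104, 107 and 90.2 CPM with C646, against 75.0, 99.9 and 99.9 CPM with DMSO. CDKN2B had 11.8, 15.8 and 19.6 CPM with C646, against 11.1, 14.3 and 15.9 CPM with DMSO. The groups overlapped for all 6 genes, with log2 changes of -0.26 ± 0.15 for CDKN3 to 0.19 ± 0.27 for CDKN2B. By edgeR and by DESeq2, 0 of 6 were called, and 0 had an unadjusted p under 0.05 in either tool, beside 1.21% of all genes called by edgeR and 5.84% by DESeq2. A p above the threshold does not show that the levels were alike.

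Some genes around these inhibitors were called between C646 and DMSO, where 1.21% of all genes passed in edgeR. CDKN1A averaged 1208 ± 254 CPM with C646 and 409 ± 104 CPM with DMSO (1.56 ± 0.22, edgeR adjusted p = 0.0074). TBX2, a repressor of the INK4 locus, averaged 25.7 CPM with C646 and 4.10 CPM with DMSO (2.65 ± 0.42, edgeR adjusted p = 0.0130), a call that ended without DMSO library 1 (2.45, adjusted p = 0.0828). Its TPM was 11.7 ± 7.05 with C646 and 1.74 ± 0.50 with DMSO (SD). Of 16 INK4 regulators it was the 1 called. Of 20 genes timed like CDKN3 to G2 and mitosis, 20 had a negative log2 change with C646 against DMSO, with a median of -0.59 against 0.01 over all genes. Of all genes, 51.4% had a positive change here. The 20 genes share their libraries and are not independent of each other. Without DMSO library 1, which stood apart on the third principal component (58.0, against -27.2 to 17.1 in the other 11 libraries), the median was -0.32, 3 had an unadjusted p under 0.05 and 0 passed. With all 12 libraries 15 had an unadjusted p under 0.05 and 1 passed the adjusted threshold (BUB1B, -0.92), and CDKN3 itself measured -0.26 ± 0.15 (18.8, 23.4 and 26.0 CPM with C646, against 31.8, 25.5 and 24.5 CPM with DMSO). The call of BUB1B ended without DMSO library 1 (-0.65, adjusted p = 0.211), DMSO library 3 (0.0711), or C646 library 1 (0.173), 2 (0.120) or 3 (0.0827), and with DESeq2 size factors (0.0531), spike-in scaling (0.942) or the compared groups alone (0.114). Of the other lists with C646 against DMSO, 0 of 13 p27 genes, 1 of 12 cyclin and kinase genes (lower), 1 of 10 p15 and TGF-beta genes (lower) and 2 of 7 genes around ARF and MDM2 (higher) were called.

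Between DMA and C646 set directly against each other, 0 of the 6 inhibitors passed. The log2 changes of CDKN1B (0.026 ± 0.19) and CDKN2C (0.095 ± 0.19) lay near 0 and took either sign when 1 library was left out. CDKN3 had 32.8, 31.2 and 29.8 CPM with DMA, against 18.8, 23.4 and 26.0 CPM with C646, with no overlap (0.46 ± 0.15, edgeR adjusted p = 0.130). CDKN2A also had no overlap (0.38 ± 0.13, edgeR adjusted p = 0.136), and 21.6% of all genes had none. CDKN2B overlapped through DMA library 1 (0.64 ± 0.27, edgeR adjusted p = 0.238), and leaving out 1 library gave log2 changes of 0.47 to 0.92, with an adjusted p of 0.0468 without DMA library 1 and of 0.198 to 0.530 without any 1 of the others. By edgeR 3 of 6 had an unadjusted p under 0.05, DESeq2 called 0, and 2.89% of all genes passed in edgeR and 6.91% in DESeq2. Of the 20 genes of G2 and mitosis, 20 had a positive log2 change with a median of 0.64, beside 50.5% of all genes, and 2 passed. Without DMA library 1 the median was 0.43 with 19 positive and 1 passed, and with spike-in scaling 0 passed. The 20 genes are not independent of each other, and the C646 libraries are also those set against DMSO above. Of the other lists, 1 p15 and TGF-beta gene of 10 (higher) was called and 0 of the p27, INK4, cyclin and kinase, or ARF and MDM2 genes. AURKA, a mitotic kinase, averaged 60.0 CPM with DMA and 29.3 CPM with C646 (1.04 ± 0.17, edgeR adjusted p = 0.0076). That call held without any 1 library and ended with spike-in scaling (1.10, adjusted p = 0.125).

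**Figure D3:**
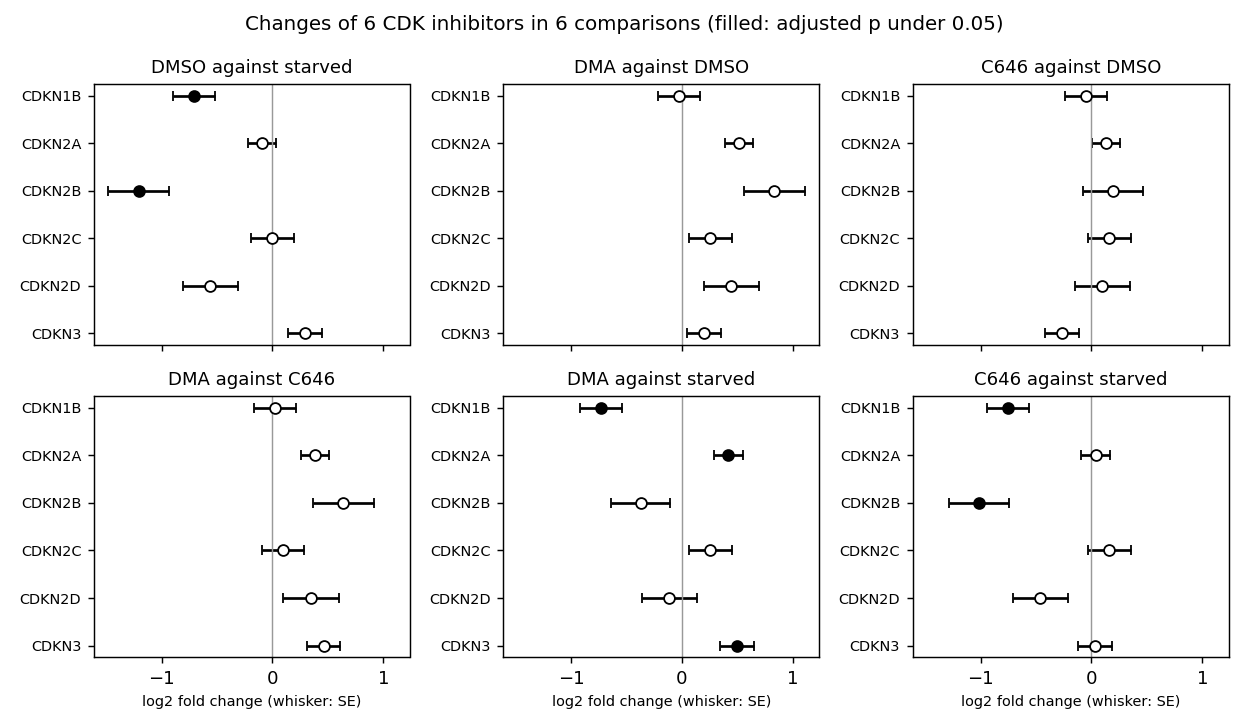
Log2 fold change of the 6 inhibitors in 6 comparisons, with the first-named group over the second and whiskers for the SE; filled points have an edgeR adjusted p under 0.05. CDKN1B lies at -0.70 to -0.76 in the 3 comparisons with starved cells, and CDKN2B lies at -1.21 with DMSO, -1.01 with C646 and -0.37 with DMA.

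Against the same starved libraries, each refed group had less CDKN1B, while the values of CDKN2B and CDKN2A were spread more widely. The comparisons share their starved libraries, so the values are given side by side. CDKN1B changed by -0.73 ± 0.19 with DMA (edgeR adjusted p = 0.0122), by -0.76 ± 0.19 with C646 (0.0116) and by -0.70 ± 0.19 with DMSO. The DMA call ended without starved library 3 (adjusted p = 0.0549), and the C646 call held without any 1 library (0.0089 to 0.0462). With spike-in scaling CDKN1B measured 0.07 with DMA and -0.07 with C646, and neither passed.

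CDKN2B changed by -0.37 ± 0.27 with DMA (edgeR adjusted p = 0.331) and by -1.01 ± 0.27 with C646 (0.0164). The C646 call ended without C646 library 1 (adjusted p = 0.0701) or starved library 1 (0.0530), with spike-in scaling (-0.24, adjusted p = 0.588) and with an offset for effective length (-0.87, adjusted p = 0.0694). CDKN2A rose with DMA by 0.42 ± 0.13 (131 CPM with DMA, 97.7 CPM in starved cells, edgeR adjusted p = 0.0273), and measured 0.04 ± 0.13 with C646 (0.864). The DMA call ended without DMA library 1 (0.0769), DMA library 3 (0.105), starved library 1 (0.0657) or starved library 3 (0.0795), and with the length offset (0.0538). CDKN3 rose with DMA by 0.49 ± 0.15 (31.3 CPM with DMA, 22.2 CPM in starved cells, edgeR adjusted p = 0.0293), a call that ended without any 1 of the DMA libraries 1, 2 and 3 (0.0874, 0.0651 and 0.0561) or starved libraries 1, 2 and 3 (0.112, 0.0566 and 0.0534), with the length offset (0.0727) and with no filter (0.0512). With spike-in scaling CDKN2A (1.23, adjusted p = 0.0019), CDKN3 (1.28, 0.0022) and CDKN2C (1.06, 0.0146) passed as higher with DMA, beside 42.2% of all genes called as higher.

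In all, 2 inhibitors were higher and 1 lower with DMA than in starved cells, where 26.9% of all genes passed, 13.9% higher and 13.0% lower. With C646, 2 were lower than in starved cells, where 24.6% passed and 11.7% were lower. Of the 20 genes of G2 and mitosis, 1 was higher and 0 lower with DMA (median 0.06), and 0 were higher and 6 lower with C646 (median -0.59). With spike-in scaling these were 12 higher with DMA (median 0.85) and 0 called with C646 (median 0.14). Against starved cells, the p27 genes had 3 higher and 1 lower of 13 with either agent, the cyclin and kinase genes 2 higher and 2 lower of 12 with either agent. The INK4 regulators had 4 higher and 5 lower of 16 with DMA and 3 higher and 3 lower with C646. The p15 and TGF-beta genes had 1 higher and 3 lower of 10 with DMA and 1 higher and 4 lower with C646, and the ARF and MDM2 genes 2 higher and 2 lower of 7 with DMA and 2 higher and 3 lower with C646.

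As assigned by estimation, the CDKN2A count went almost wholly, in every group, to transcripts annotated to start at or downstream of the p16 promoter. Upstream, on the ARF side, start 5 annotated transcripts, which together had 1 to 10 counts per library and 39 counts in all 12 libraries, of 28257 for the gene. In shares of the gene's count this was 0.0617% to 0.509%, the highest in C646 library 3 with 10 counts. Its 95% exact interval of 0.243% to 0.930% covers counting error only, not error in assigning reads to transcripts. CDKN2A-214, a full-length transcript of that side, was listed at 0 in all 12 libraries. At these counts no difference in ARF-side transcripts between the groups was detectable.

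Inside the p16 window printed above start 4 transcripts, with 415 to 1203 counts per library, 29.5% to 46.4% of the gene's count. Another 5 start further inside the gene, with 861 to 1891 counts, 53.5% to 70.0%. Transcripts from the p16 window averaged 75.3 ± 3.05 TPM with DMA, 57.04 ± 20.03 TPM with C646, 52.99 ± 10.3 TPM with DMSO and 52.4 ± 6.98 TPM in starved cells. Those with an internal start averaged 215 ± 39.4, 170.0 ± 2.85, 155 ± 39.5 and 164 ± 15.1 TPM in the same order of groups. Both classes thus had their highest mean with DMA, and the p16 window's mean share of the gene's TPM was 24.1% to 26.3% in the 4 groups. Most of the internal class was CDKN2A-212, with a median of 73.6% of the gene's TPM, and that transcript has no sequence of 31 bases that the gene's other transcripts lack. The separation of CDKN2A-212 from the p16 transcript CDKN2A-201 (median 17.2% of TPM) is therefore an estimate of the authors' quantification. CDKN2A-213, which starts in the p16 window, has no such sequence of its own either. Between CDKN2A and CDKN2B only 1.56% and 1.73% of such sequences are shared, and none of the 6 genes shares more than 20% of its sequence or exons with others.

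**Figure D4:**
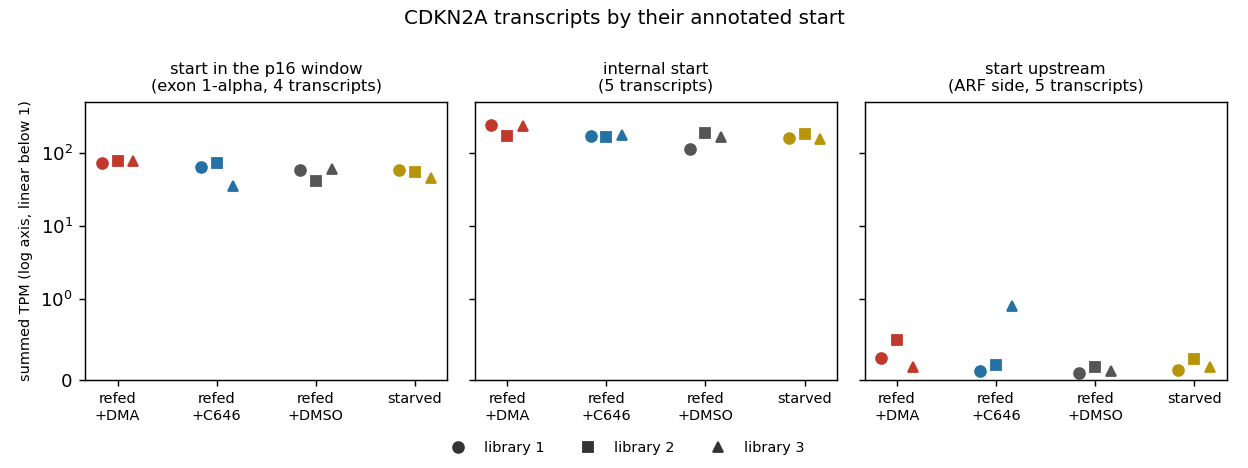
Summed TPM of CDKN2A transcripts by annotated start (log axis, linear below 1) in each library, refed with DMA, C646 or DMSO and starved; symbols give the library number. Upstream, ARF-side transcripts lie below 1 TPM in all 12 libraries, and both other classes lie above 30 TPM.

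For the other genes, the leading transcript is given by its median share over the 12 libraries. CDKN1B-201 held a median of 67.5% of the gene's TPM, CDKN2B-201 58.5%, CDKN2C-202 63.8%, CDKN2D-201 66.9%, and the leading CDKN3 transcript 53.4%. CDKN1B-201 and that CDKN3 transcript came first in 12 of 12 libraries, CDKN2C-202 in 11, and CDKN2B-201 and CDKN2D-201 in 10. CDKN2B-201 had 289, 292 and 301 counts in the DMSO libraries, against 675, 683 and 353 counts in the starved libraries, of which starved library 3 is the shallowest of the study (-1.18 ± 0.30, edgeR adjusted p = 0.0880, DESeq2 adjusted p = 0.0033). The other CDKN2B transcript tested, one with a retained intron, had 26, 48 and 72 counts with DMSO, against 100, 102 and 39 counts in starved cells (-0.87 ± 0.56, edgeR adjusted p = 0.559). The changes of these transcripts were not compared by a test. Over 59656 transcripts tested, 0 of the 21 transcripts of the 6 genes were called by edgeR in any of the 6 comparisons, and 0 to 3 of them had an unadjusted p under 0.05 in each. That fit called few transcripts of any gene, and 0 calls do not show that levels were alike. DESeq2 called 1 with DMSO against starved, 2 with DMA against starved (CDKN1B-201, lower, and CDKN3-202, higher), 2 with C646 against starved (CDKN1B-201 and CDKN2B-201, both lower) and 0 in the others. By edgeR, 1.88% of all transcripts were called for DMSO against starved, 2.31% for DMA against starved, 1.81% for C646 against starved, 0.00503% for DMA against DMSO, 0.00335% for C646 against DMSO and 0.00671% for DMA against C646. DESeq2 called 7.73%, 8.86%, 7.03%, 2.61%, 1.56% and 1.52% of all transcripts in the same order of comparisons. For CDKN2A, DMA gave similar log2 changes against DMSO in CDKN2A-201 (0.44, edgeR adjusted p = 0.554) and CDKN2A-212 (0.47, 0.521).

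The 6 inhibitors varied differently over the 12 libraries. The highest Pearson r between any pair of them, on log2 CPM over the 12 libraries of the 4 groups, was 0.61 between CDKN1B and CDKN2B, and the lowest was -0.42 between CDKN1B and CDKN3. Among 10600 genes with a mean log2 CPM of at least 2, the genes most like CDKN1B were CRBN (r = 0.949), ZNF251 (0.930) and PXK (0.929). Those most like CDKN2A were TSEN34 (0.946), SIVA1 (0.945) and CSNK1E (0.935), and those most like CDKN2B were GKAP1 (0.954), ANKRD10 (0.948) and EPB41 (0.947). CDKN3 was closest to ILF2 (0.933), AURKA (0.903) and THOC3 (0.894). CDKN2C was closest to PRPF18 (0.851), SLAIN2 (0.824) and CAT (0.824), and CDKN2D to KRT7 (0.865), WASHC1 (0.859) and PPP1R13B (0.853). These values describe 12 libraries that share 4 treatments, and the highest of many genes is high by selection.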

How the data were processed

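Expression was measured in 12 RNA-seq libraries of RPE-1 cells (polyadenylated RNA, a stranded kit per the labels' protocols). The authors deposited one table per library with each transcript's length, effective length, expected (estimated) count and TPM, per the file headers. Trimmomatic 0.36, STAR 2.7.0e and GRCh38.p10 are named per the submitters' processing notes. What quantified the transcripts, and with which strand setting, is not given in the sources used here. Of 182164 transcripts in each table, 181808 matched GENCODE 29 and were summed to 43481 genes, 92 were spike-ins and 264 were unmatched.

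The expected counts, deposited where whole counts had been assumed, were rounded and tested with edgeR 4.0.16 (R 4.3.3, limma 3.58.1): robust quasi-likelihood test, TMM scaling, one fit over all 12 libraries, filterByExpr with a minimum count of 10 and total of 15, and Benjamini-Hochberg adjustment over the 15263 genes tested (59656 transcripts in the transcript fit) at 0.05. Depth limits the lowest genes: CDKN2D had 84 to 162 counts. SEs belong to the fitted log2 change. The deposited TPM served only for levels between genes, the deposited effective length as an alternative offset, and transcript length in a check of the annotation. Alternatives were DESeq2 1.42.0, its size factors in edgeR, spike-in scaling, other filters, the compared groups alone, the library number as a block and leaving out each library. The fits were tested on simulated data.

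The library numbers paired the libraries in 5 of 6 comparisons, by a rule that each same-numbered pair correlates above 0.1 in deviations from the group means. In those the r was 0.128 to 0.483, and in DMSO against starved it was 0.0957, 0.330 and 0.182. On the second principal component (14.6% of variance), the libraries numbered 3 lay at 27.6 to 36.7 and all others at -27.1 to 2.66. The main fit does not model this difference, and the fit with the block does. The labels do not say what a number marks. The 6 genes and 7 gene lists were chosen with earlier results of these data known. All 6 genes were named in every comparison. From each list, genes were named among the up to 3 largest called changes per direction, as counts where leaving out a library ended the call, with TBX2, BUB1B and CDKN1A given all the same. The levels of FOXO1 and FOXO3 were added beside FOXO4 as members of its family. A gene of the list around ARF and MDM2 is not reported here by name.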

Additional observations from a re-analysis of the deposited data

How the results depend on the processing

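Of the alternatives to the 6 genes' changes, 454 kept direction and side of the threshold, 23 lost the call, 8 gained it and 37 reversed a value. The reversed values lay near 0 apart from those with spike-in scaling, where the median of all genes also moved, and the cause was not tested. With spike-in scaling, CDKN1B measured 0.17 for DMA and 0.029 for C646 against DMSO and 0.067 for DMA against starved. CDKN2A measured 0.55 and CDKN2C 0.54 for DMSO against starved, CDKN2B 0.51 for DMA against starved, and CDKN2D 0.70 for DMA, 0.20 for C646 and 0.091 for DMSO against starved. CDK4 (0.19), RNF123 (0.17) and SMAD4 (0.20) also turned positive for DMSO against starved. With the length offset CDKN1B measured 0.044 for DMA against DMSO and CDKN2C 0.052 for DMSO against starved. In that comparison CDKN2C measured 0.013 with no filter and 0.00142 with the replicate block. The block without DMSO library 1 gave CDKN2A 0.051 for DMSO against starved and -0.014 for C646 against DMSO, and CDKN2D -0.16 for C646 against DMSO.

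Over the fits that leave out 1 library, the values that changed sign ranged as follows. CDKN1B ranged from -0.18 to 0.077 for DMA against DMSO, -0.16 to 0.050 for C646 against DMSO and -0.13 to 0.13 for DMA against C646. CDKN2A ranged from -0.16 to 0.032 for DMSO against starved and -0.018 to 0.11 for C646 against starved. CDKN2C ranged from -0.13 to 0.066 for DMSO against starved and -0.090 to 0.24 for DMA against C646. CDKN2D ranged from -0.18 to 0.25 for C646 against DMSO and -0.22 to 0.027 for DMA against starved, and CDKN3 from -0.072 to 0.15 for C646 against starved.

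The number of genes called depended on the setting most where few were called. For DMA against DMSO (267 genes), DESeq2 called 1096, no filter 455, the length offset 103, the compared groups alone 31, the replicate block 1560, the block without DMSO library 1 471 and spike-in scaling 91 (93.4% higher). For C646 against DMSO (185), these were 891 with DESeq2, 348 with no filter, 71 with the compared groups alone, 1199 with the block, 321 with the block without DMSO library 1 and 100.0 with spike-in scaling. For DMA against C646 (441), they were 1055 with DESeq2, 279 with the length offset, 140.0 with the compared groups alone, 1498 with the block and 120.0 with spike-in scaling. For DMA against starved (4109), spike-in scaling called 6574, of which 97.9% were higher, and the block called 5914. The block called 5531 for C646 and 5451 for DMSO against starved. Apart from CDKN2A and CDKN2B for DMA against DMSO, the block changed no call of the 6 genes. Of transcripts, DESeq2 called 1559 for DMA against DMSO (edgeR 3), 933 for C646 against DMSO (2), 906 for DMA against C646 (4), 5285 for DMA against starved (1377), 4193 for C646 against starved (1079) and 4609 for DMSO against starved (1122). The block called 1, 19 and 1790 transcripts for DMA against DMSO, DMA against C646 and DMSO against starved. Without 1 library, the genes called numbered 1 to 286 for DMA against DMSO, 24 to 135 for C646 against DMSO, 180 to 316 for DMA against C646, 3009 to 3480 for DMA, 2514 to 3221 for C646 and 2269 to 3450 for DMSO against starved. The transcripts called numbered 0 to 9, 0 to 4, 1 to 9, 472 to 635, 355 to 544 and 351 to 699 in the same order. Of the 13 p27 genes, 1 to 5 were called for DMA and 2 to 5 for C646 against starved when 1 library was left out. Library depth, with CDKN2D at 84 counts in the shallowest library, limits what these comparisons can resolve for the lowest genes.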
